A study of Mus musculus with 10 samples.

Results

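Of the 1577 loci in a table of Elk1 and Gli2 chromatin binding in mouse cells, 283 had an Elk1 signal of 100 or more at day 4 of chemical reprogramming, and they were chosen by that value alone. They fell into 199 loci where no Gli2 library reached 100, called Elk1-only loci here, and 84 shared loci where at least 1 Gli2 library did. The remaining 1294 loci of the table reached the limit in some other library. Because the day 4 Elk1 signals chose the loci and the Gli2 signals split them, both are given as a description and support nothing. The name Elk1 locus fits the rule and not the antibody, since 29.7% of the 283 loci also reached 100 with Gli2. Reaching 100 with Gli2 was not particular to them. In the Gli2 day 0 library 77 of the 283 loci reached it, as did 628 of all 1577.

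The study followed chromatin binding of both factors by immunoprecipitation and sequencing while cells named tdMEFs in the labels were turned towards a neural state. The 5 stages were tdMEFs at days 0, 4 and 8 of reprogramming, ciNSLCs, and pri-NPC, each named as in the labels, with 1 library per antibody and stage, 10 in all. tdMEFs grew in a medium with fetal bovine serum before induction. The M9 medium mixed neural basal medium and DMEM/F12 with N2, B27 and bFGF, and contained the small molecules Parnate, RG108, SMER28, retinoic acid, Hh-Ag1.5, A83-01, LDN193189 and CHIR99021 at 5% O2. The series text writes ciNSLC beside day 0, whereas the sample labels list both separately and are used here. How ciNSLCs and pri-NPC were grown, and whether animals were pooled, is not given in the sources used here. A binding table holds no RNA, so the named cell types could not be checked against markers. No stage has a replicate, so no difference between stages below has a replicate check and none has a p-value.

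Elk1 is an ETS-domain transcription factor of the ternary complex factor family. It binds with serum response factor (Srf) at immediate-early genes and is activated when MAP kinases phosphorylate it, which links growth factor signals to genes such as Fos and Egr1. Its recognition sequence has the ETS core shared by many related factors. Gli2 is a zinc finger transcription factor that carries the Hedgehog signal, started when the receptor Ptch1 releases Smo, to target genes in the nucleus.

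RefSeq promoter windows were used for 17492 of 21900 protein-coding genes and not for Egr1, so promoter overlap could not be looked for at every locus. With the windows used, 2 of the 283 loci overlapped one of a protein-coding gene, and both were Elk1-only. The first was chr11:103267445-103267805, with its centre 224 bp before the start of Map3k14, which encodes the NIK kinase of the non-canonical NF-kappaB pathway. The second was chr3:34649325-34650265, with its centre 200 bp before the start of Sox2, a transcription factor of pluripotent and neural progenitor cells. The 250 bases before each start are shown from RefSeq on GRCm38.p6, the same build as the mm10 of the table, because Elk1 signal lay on them. They run 5′ to 3′ on the strand of the gene, with matches to CCGGAA, the ETS core, in capitals. The Map3k14 bases are chr11:103267402-103267651 on the minus strand and the Sox2 bases are chr3:34649745-34649994 on the plus strand.
Map3k14: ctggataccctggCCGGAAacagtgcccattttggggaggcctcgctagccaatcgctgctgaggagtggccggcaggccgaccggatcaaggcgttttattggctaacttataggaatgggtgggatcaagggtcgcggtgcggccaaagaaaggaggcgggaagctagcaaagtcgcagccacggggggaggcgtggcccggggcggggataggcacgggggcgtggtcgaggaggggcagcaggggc
Sox2: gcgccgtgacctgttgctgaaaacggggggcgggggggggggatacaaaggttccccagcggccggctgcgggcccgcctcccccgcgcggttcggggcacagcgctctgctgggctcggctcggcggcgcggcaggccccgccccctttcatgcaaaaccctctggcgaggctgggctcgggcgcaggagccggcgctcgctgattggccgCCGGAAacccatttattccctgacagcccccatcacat

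Each window held CCGGAA once, on the strand of the gene. The match lay at -237 to -232 before Map3k14 and at -38 to -33 before Sox2, counted from -1 at the base next to the start, and both matches were inside the Elk1 locus. Of the 250 bases, 207 were inside the locus at Map3k14 and 250 at Sox2. The search covered both strands for CCGGAA, for the longer ETS site CCGGAAGT that contains it, for the Gli site GACCACCC and for the CArG box bound by Srf. The longer ETS site, the Gli site and the CArG box had no match in either window. Over all 21263 RefSeq windows of 250 bases before protein-coding starts, 15.0% held CCGGAA, 3.79% CCGGAAGT, 1.39% a CArG box and 0.663% GACCACCC, so a core match was common. A match is a string of letters and was not taken as a binding site. The sequences of the other loci were not analysed here.

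Signals are the authors' values, and low signals fell on a grid whose step was taken as 1 counted unit. In the Elk1 libraries a unit was worth 3.44, 9.69, 5.08, 2.83 and 14.5 over the stages in order, so a signal of 100 was worth about 10 units at day 4, before the background steps are added back. For Gli2 a unit was worth between 3 in ciNSLCs and 11.95 at day 0. Intervals below are 95% exact intervals from these units, cover counting error only and ignore the subtracted background. Total read depth is unknown. Of low Elk1 day 4 signals 94.0% fell on the grid, against 68.0% in Elk1 pri-NPC, where the unit is uncertain. Letting the fit take 3 background steps in place of 2 gave 92.6% on the grid there with a unit of 2.9, and gave each of the other 9 libraries the same unit or, for Gli2 at day 0, 11.945. The unit of 14.5 gives the wider intervals and is used below, and each pri-NPC interval depends on it.

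The 199 Elk1-only loci were for the most part narrow and close to the limit at day 4. Their Elk1 signal at day 4 was 100.3 at the lowest, 108.3 at the median and 271.3 at the highest locus. A signal of 106.6 was shared by 56 of them, 108.3 by 29, 116.3 by 26 and 100.3 by 13. The value of 106.6 equals 11 units, for which a Poisson interval runs over 5.49 to 19.7 units. The loci nearest the limit were 15 tied at 100.3, of which 13 were Elk1-only and 2 shared, and the 3 loci just outside it had 99.8, 99.2 and 98.6.

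At the other stages the median Elk1-only locus was low. Outside day 4 its Elk1 signal ran over 17.2, 15.2, 11.3 and 14.5 in stage order, and its Gli2 signal was 23.9, 15, 12.8, 12 and 12.4 over the 5 stages in order. Over the other 1294 loci Elk1 medians outside day 4 were 10.3, 10.2, 9.2 and, in pri-NPC, 100.4, through which many of them were listed. Day 4 was the highest of the 5 Elk1 signals at 195 of the 199 loci, as the rule favours, and 190 reached 100 in no other library. The limit on Gli2 left in 45 loci whose highest Gli2 signal was 50 or more, 14 of them at 75 or more. The widths had a median of 260 bp and ran to 940 bp at Sox2.

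**Figure D1:**
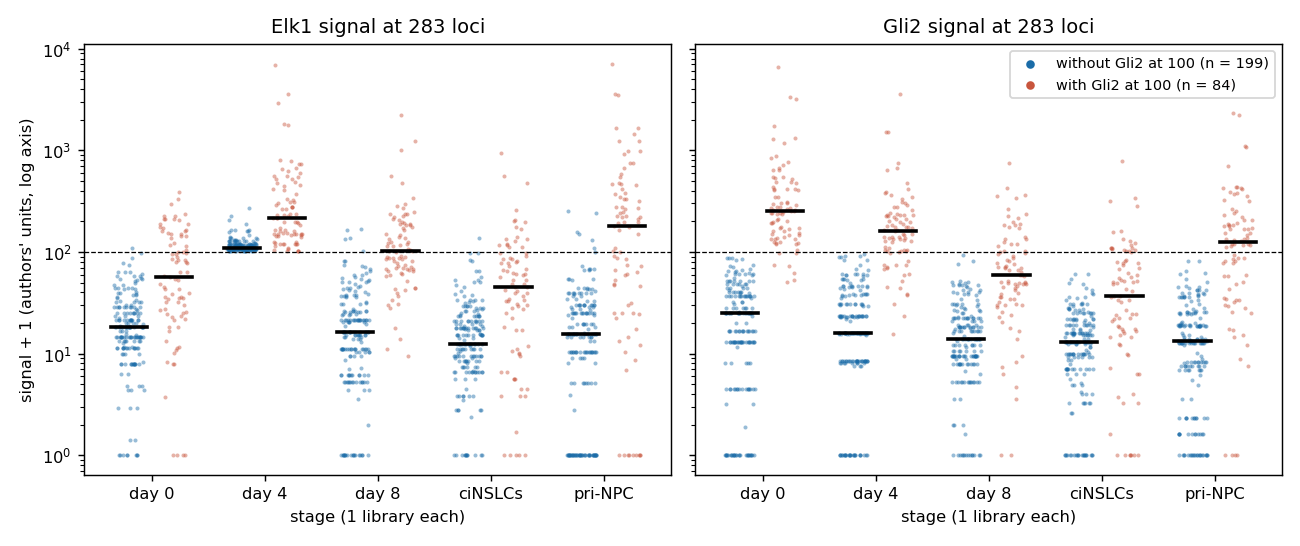
Elk1 signal (left) and Gli2 signal (right) plus 1 on a log axis at the 283 loci over the 5 stages, with 1 library per stage, blue for the 199 loci without Gli2 at 100 and red for the 84 with it; black bars are medians and the dashed line is the limit of 100. The blue Elk1 points crowd just above the line at day 4, with a median of 108.3, and have medians of 11.3 to 17.2 at the other stages, whereas the red medians lie between 44.2 and 215.3.

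Loci that kept Elk1 signal beyond day 4 were few among the Elk1-only ones. Signal of at least 50 in each of the 3 later libraries was found at 5 of the 199 Elk1-only loci, beside Fos, Egr1, Junb and Map3k14 and at an immunoglobulin segment. The same held at 36 of the 84 shared loci and at 5 of the other 1294. The Elk1-only share of 2.51% was near the 2.92% of all 1577 loci. At a limit of 75 the shares were 1.51% and 1.59%. A limit of 75 left 3 Elk1-only loci, those of Fos, Egr1 and Junb, and a limit of 40 gave 9. Those added at 40 all lay on chromosome 1, in or near A530032D15Rik, Gm38510 and Ugt1a10. One of them, chr1:85280805-85281385, missed the limit of 50 only through 49.8 in ciNSLCs. In pri-NPC this locus ranked 3 of the 199, ahead of Egr1 at 4. These limits were chosen after the values were seen.

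Fos, which encodes an AP-1 subunit, ranked first of the 199 loci for Elk1 in each of these 3 libraries. Its locus, chr12:85485865-85486385, was centred 12235 bp past the start of the gene, and it had Elk1 signals of 37.8, 222.8, 167.6, 135.5 and 249.6 over the 5 stages in order. Beside Egr1, an immediate-early zinc finger factor, they were 24, 164.7, 137.1, 80.8 and 148, and beside Junb, another AP-1 subunit, 13.7, 203.5, 100.7, 97.7 and 129.4. The Egr1 locus lay 42 bp outside the gene at its lower coordinate, and whether it covers the promoter was not analysed here. Day 0 was the lowest Elk1 signal at each of the 3 loci. Egr3, a relative of Egr1, had 12.2, 118, 60.9, 18.7 and 27.9, so its ciNSLC and pri-NPC values fell back among those of other Elk1-only loci, at ranks 60 and 51. Gli2 at the 4 loci was highest at day 0 beside Fos, Junb and Egr3, at 35.8, 63.3 and 35.8, and at day 8 beside Egr1, at 36.8.

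Map3k14 had a course like that of the immediate-early loci and is not on the list of those genes. Its Elk1 signals were 27.5, 164.7, 81.2, 52.2 and 99.3 over the 5 stages in order, which ranked 6 of 199 for day 8, 9 for ciNSLCs and 7 for pri-NPC. Gli2 signal there was 23.9, 7.5, 12.8, 0 and 24.8, or at most 4 units. The ratio of Elk1 at day 8 to day 0 was 2.95 (counting interval 1.19 to 7.98), the ratio of pri-NPC to day 0 was 3.61 (1.14 to 11.7) and that of ciNSLCs to day 0 was 1.9 (0.766 to 4.92). The day 8 and pri-NPC intervals left out a ratio of 1, and the ciNSLC interval held it.

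The highest day 4 signal of any Elk1-only locus lay in the immunoglobulin heavy chain region, over the variable segment pseudogene Ighv1-62 at chr12:115372125-115372505. It had Elk1 signals of 96.2, 271.3, 162.5, 97.7 and 67.3 over the 5 stages and Gli2 signals of 35.8, 15, 4.3, 6 and 0. It was therefore high with Elk1 at day 0 as well, unlike the Fos, Egr1, Junb and Map3k14 loci. No protein-coding gene lay within 50 kb, and variable segments have near-identical copies, so the placing of its reads is uncertain.

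At Sox2 the Elk1 signals were 29.4, 139.1, 55.9, 32.8 and 9.3, and the Gli2 signals were 35.8, 37.6, 21.4, 26.3 and 24.8. Sox2 was the widest Elk1-only locus, and its ratios to day 0 of 1.9 at day 8 (interval 0.680 to 4.93), 1.12 in ciNSLCs (0.424 to 2.95) and 0.316 in pri-NPC (0.0107 to 3.39) all held 1.

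**Figure D2:**
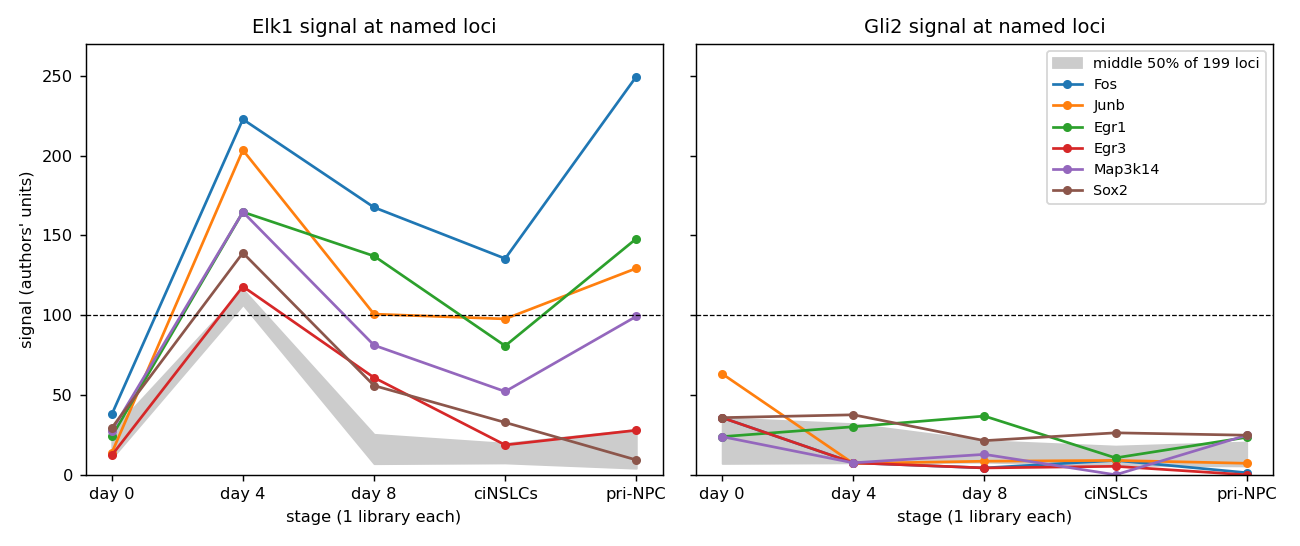
Elk1 signal (left) and Gli2 signal (right) in the authors' units at the Fos, Junb, Egr1, Egr3, Map3k14 and Sox2 loci over the 5 stages, with 1 library per stage; the grey band holds the middle 50% of the 199 loci without Gli2 at 100 and the dashed line is the limit of 100. Elk1 at Fos, Junb, Egr1 and Map3k14 stays above the grey band after day 4, with pri-NPC signals of 249.6, 129.4, 148 and 99.3, whereas Sox2 ends at 9.3, and no Gli2 signal at these loci passes 63.3.

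Among the 10 highest Elk1-only loci at day 4 with a protein-coding gene within 5 kb, 3 inside genes had signals at the later stages far below their day 4 values. The locus in Nkain3, which encodes a protein that interacts with the sodium pump, had Elk1 signals of 22.5, 159.1, 37.5, 5.7 and 0. The locus in Eda, the gene of the ectodermal signal ectodysplasin, had 13.7, 155, 15.2, 14.1 and 14.5. A narrow locus in Gm38510 had 11.8, 145.9, 12.1, 0 and 15.1. At the 3 loci day 4 stood well above the other 4 stages, which their choice by day 4 signal favours. Day 4 was the highest Elk1 signal at 195 of the 199 Elk1-only loci. Apart from the loci near Fos, Egr1, Junb, over Ighv1-62 and at chr9:3034885-3035265, the 9 Elk1-only loci that also reached 100 with Elk1 at another stage were 4 neighbours on chromosome 1, at the highest chr1:85280805-85281385 with 52.7, 186.4, 51.8, 49.8 and 155 with Elk1. Near them chr1:85085825-85086185 had 36.6, 165.3, 49.1, 82.6 and 42.4 with Elk1.

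Chromosome 1 held 43 of the 199 Elk1-only loci (21.6%, interval 16.1 to 28.0) and 8 of the 84 shared ones, against 10.6% of the other loci, and most lay in 2 stretches. The first stretch, from 85085825 to 85624665, covers Gm38510 and Sp110, a gene of the Sp100 family of nuclear body proteins. It held 17 of the 283 loci, 14 of them Elk1-only, among 34 loci of the table. Its median Elk1 signals over the 17 loci were 46.6, 117.5, 49.1, 44.1 and 26.7, and its median Gli2 signals were 38.1, 57.9, 39.3, 25.8 and 35.8. Both antibodies were therefore above the medians of the Elk1-only loci at every stage there.

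The second stretch, from 88213285 to 88305365, runs over Ugt1a10, a gene of the UDP-glucuronosyltransferases that conjugate drugs and bilirubin, and Mroh2a, up to Trpm8, the cold and menthol channel. It held 16 of the 283 loci, 13 of them Elk1-only, among 31 loci of the table. Its median Elk1 signals were 53.6, 110, 46.3, 32.2 and 17.4, and its median Gli2 signals were 53.6, 56.0, 35.4, 16.6 and 19.6. In both stretches the median Elk1 signal passed that of Gli2 at day 4, where the rule chose it, and at day 0 the medians of Elk1 and Gli2 were 46.6 and 38.1 in the first and 53.6 each in the second. Loci this close are not independent, and genes of these families have near-identical copies.

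A protein-coding gene lay within 5 kb of 99 of the 199 (49.7%, interval 42.6 to 56.9) and overlapped 77. The same share was 37 of 84 (44.0%, interval 33.2 to 55.3) for shared loci and 39.3% for the other loci, and it was 31.4% for the 685 other loci that reached 100 with Elk1 only. Gene starts were used for the nearest gene of 103 of the 135 Elk1-only loci and 31 of the 51 shared loci that had a gene within 50 kb, and for no gene on chromosome 18, which held 4 Elk1-only and 2 shared loci, so counts by start are minimum counts. Among the starts used, at least 4 Elk1-only loci lay within 1 kb of one, at Sp110, Map3k14, Sox2 and Olfr985, an olfactory receptor, and no shared locus did. These were 2.01% of the Elk1-only loci, against 4.02% of the other loci and 3.55% of all loci. Among the 685 other loci with Elk1 only the share was lower, at 0.584%. None of the 283 loci had a nuclear tRNA gene within 1 kb (interval up to 1.3%), whereas 208 of the other loci did, or 13.2% of all loci. This was not particular to the 283 loci, since 0 of the 685 other loci with Elk1 only had one (interval up to 0.537%). Another 64 Elk1-only loci and 33 shared loci were more than 50 kb from any protein-coding gene.

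Elk1-only loci were narrower than shared loci and less often close to the low-coordinate end of a chromosome by count, with no test made. The opposite end was not counted. Mouse chromosomes have the centromere at the end where coordinates begin, so low coordinates lie next to it. The first 4 Mb of a chromosome held 8 of 199 Elk1-only loci (4.02%, interval 1.75 to 7.77), 40 of 84 shared loci (47.6%, interval 36.6 to 58.8) and 1.47% of the other loci. Over all loci it held 4.25%, near the Elk1-only share. Counted once per place, meaning loci within 10 kb of each other, these shares were 2.81% for Elk1-only and 15.6% for shared loci. Wider than 500 bp were 4 of 199 Elk1-only loci (2.01%), against 52 of 84 shared loci (61.9%), whose median width was 640 bp and whose widest was 17980 bp. The share that wide was 13.4% for the other loci and 14.6% over all loci. A pseudogene lay within 1 kb of 8 Elk1-only loci (4.02%) and 12 shared loci (14.3%, interval 7.61 to 23.6), among them Pisd-ps1, Pisd-ps2, Fau-ps2 and Rn18s-rs5 for the shared ones. For the other loci the pseudogene share was 1.93%, and over all loci 2.85%. Neighbouring loci are not independent, so these intervals are too narrow.

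**Figure D3:**
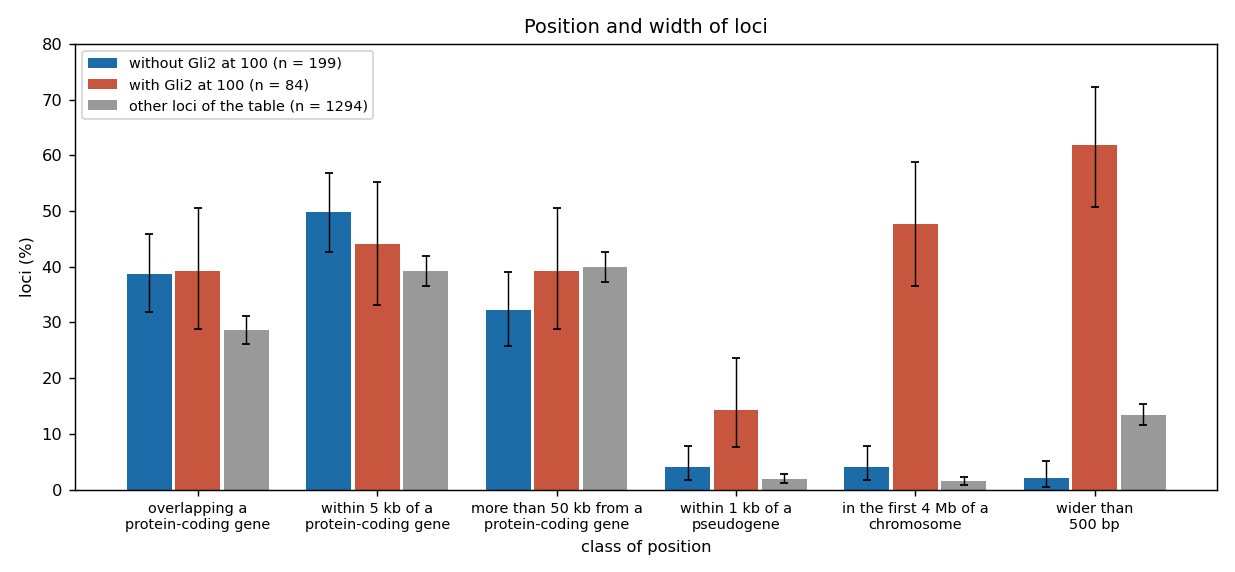
Share of loci in percent in each class of position or width, for the 199 loci without Gli2 at 100 (blue), the 84 with it (red) and the other 1294 loci of the table (grey), with 95% exact binomial intervals. Blue stands below red for the first 4 Mb of a chromosome, at 4.02% and 47.6%, and for widths over 500 bp, at 2.01% and 61.9%. The blue and red shares overlapping a gene, 38.7% and 39.3%, lie within each other's intervals, and the grey share is 28.7%.

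The 283 loci made 213 places, and 11 places with 3 or more loci held 75 of them, 48 shared and 27 Elk1-only. The largest shared place lay in Sfi1, which encodes a centrosome protein, on chromosome 11 from 3126945 to 3200085. All 18 of its loci were shared, with median Elk1 signals of 178.9, 250.8, 207.3, 103.5 and 185.4 and median Gli2 signals of 239.7, 186, 125.5, 99.5 and 142.7. The widest of all loci, chr11:3152025-3170005, was in Sfi1 and had 293.6, 441.4, 284.6, 198.9 and 376.4 with Elk1 and 410.3, 257.2, 263.2, 161.2 and 231.4 with Gli2. Every library passed 100 there, which held at 5 of the 283 loci, all in Sfi1.

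The place on chromosome 9 from 2999865 to 3038365 held 16 shared and 2 Elk1-only loci and had another course. Its median Elk1 signals were 15.5, 273.1, 84.2, 49.7 and 383.8, and its median Gli2 signals were 265, 136.5, 29.7, 42.8 and 187.7. The place on chromosome 2 from 98662085 to 98667465 held 4 shared loci with median Elk1 signals of 25.6, 1863.9, 598.6, 267.9 and 2454.4, and up to 6966.8 at day 4. At both places Elk1 was low at day 0 while Gli2 was at its highest. The Elk1-only locus chr9:3034885-3035265 stood beside these and had Elk1 signals of 0, 115.3, 37, 2.8 and 238.6 with Gli2 at 86.5 at day 0, just under the limit.

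Outside such places, several of the 10 highest shared loci also had low Elk1 and high Gli2 signals at day 0. The locus 29108 bp from Rpusd4, chr9:35305065-35305665, had Elk1 signals of 6.9, 3574, 1231.3, 559.4 and 3571.7 and Gli2 signals of 3382.2, 1526.8, 357.1, 318.6 and 2330.4. One in Chl1, the gene of a neural cell adhesion molecule, had 0, 458.7, 137.8, 3.5 and 749.7 with Elk1 and 480.8, 344.2, 19.4, 16.6 and 413.1 with Gli2. One in Cdk5rap2, the gene of a centrosomal protein, had 17.2, 414.2, 144.7, 66.5 and 370 with Elk1 and 303, 208.3, 64.7, 79.4 and 242.4 with Gli2. In each of these the day 0 Elk1 signal was below all 9 other values and the day 0 Gli2 signal was above the other 4 Gli2 values. The loci at chr14:19415585-19419805 and chr12:3109825-3110245 and those near Ly6c2, a lymphocyte surface antigen gene, and Dpy19l2, needed for sperm head formation, had day 4 Elk1 signals between 312.4 and 1802.1. Whether the sequences of these shared loci and places have near-identical copies was not tested, so the placing of their reads is uncertain. The gene names give position only.

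Other shared loci had little Elk1 signal left in ciNSLCs. Over Rn18s-rs5, a ribosomal RNA related sequence at chr17:39842845-39848965, Elk1 signals were 209.2, 622.7, 233.5, 2.8 and 7.6 and Gli2 signals were 887.8, 662.7, 364.3, 35.2 and 220.2. At chr3:5860485-5860925 they were 61.8, 474.9, 98.1, 2.8 and 0 with Elk1 and 551, 413.4, 234.8, 5.3 and 0 with Gli2. Both antibodies were low in ciNSLCs at both loci, whereas in pri-NPC Gli2 was low at the chromosome 3 locus and not over Rn18s-rs5. In Aida, an axin-binding protein gene, Elk1 was 327.9, 738.7, 105.8, 4.6 and 665 and Gli2 was 1180.7, 474.6, 21.8, 0 and 261.5, so the low values came in ciNSLCs and not in pri-NPC. Elk1 was under 25 in both ciNSLCs and pri-NPC at 15 of 84 shared loci, whose median Elk1 signals were 44.3, 142.5, 63.5, 5.6 and 7.6, whereas it was at least 100 in pri-NPC at 48.

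**Figure D4:**
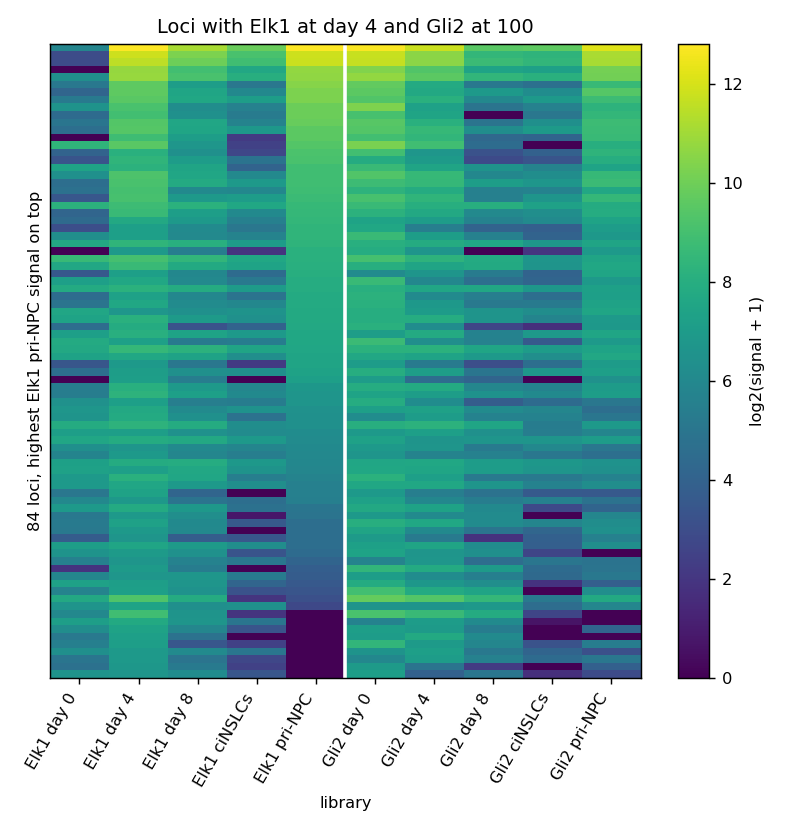
Colour gives log2(signal + 1) at the 84 loci that reached 100 with Elk1 at day 4 and with Gli2 in any stage, 1 locus per line sorted by Elk1 signal in pri-NPC, with 1 column per library (5 Elk1 stages left, 5 Gli2 stages right). The uppermost loci are bright in pri-NPC with both antibodies and dark with Elk1 at day 0. The lowest lines are dark with Elk1 in pri-NPC, which sets the order. Elk1 is under 25 in both ciNSLCs and pri-NPC at 15 of the 84 loci.

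Rank correlations across the shared loci are given as a description, since Elk1 at day 4 chose the loci and Gli2 at any stage split them. Of the 84, those with Gli2 at 100 or more numbered 77, 65, 24, 19 and 49 over the stages in order, and 11 reached it with Gli2 at day 0 alone. Spearman's rho between Elk1 day 4 and Gli2 day 4 across the 84 loci was 0.78. Across the shared loci rho of Elk1 day 4 was 0.76 with Gli2 day 0, 0.73 with Elk1 day 8, 0.71 with Elk1 pri-NPC and 0.02 with Elk1 day 0. Within a stage rho between the antibodies was 0.90 in pri-NPC, 0.86 in ciNSLCs, 0.68 at day 8 and -0.07 at day 0. The loci share width, place and reads, and rho between Elk1 day 4 and width was 0.49, so no p is given.

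**Figure D5:**
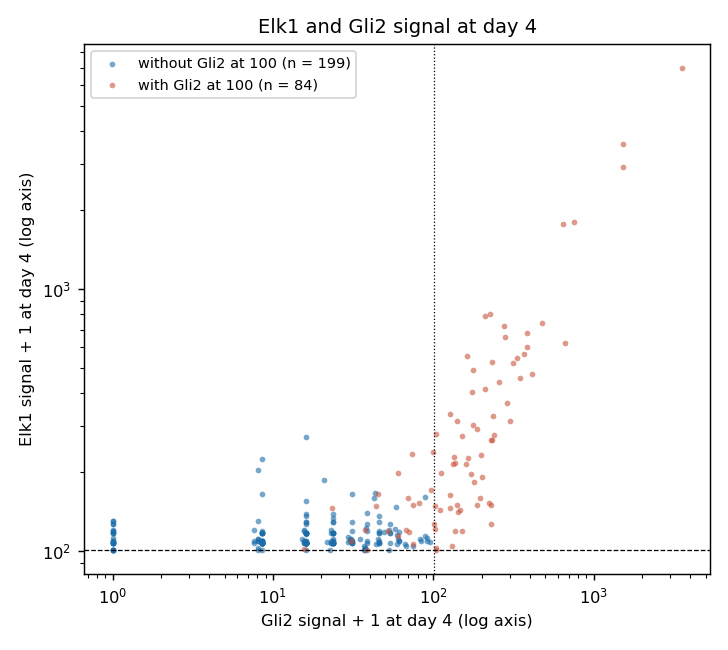
Elk1 signal plus 1 at day 4 against Gli2 signal plus 1 at day 4, both on log axes, for the 199 loci without Gli2 at 100 (blue) and the 84 with it (red); the dashed and dotted lines mark 100 for Elk1 and Gli2. Both axes show values that the choice and the split of the loci used; rho over the red points is 0.78, and the blue ones lie between 100.3 and 271.3 for Elk1.

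The locus in Smo, the transducer of the Hedgehog signal, was the 1 shared locus assigned to a Hedgehog pathway gene. At chr6:29748365-29748585 its Elk1 signals were 26, 108.3, 38.2, 4.6 and 0 and its Gli2 signals were 123, 29.6, 3.7, 0 and 14.3. Each antibody passed 100 there at a single stage, Elk1 at day 4 and Gli2 at day 0. The ratios of Elk1 to day 0 were 1.47 at day 8 (interval 0.483 to 4.52) and 0.177 in ciNSLCs (0.0213 to 1.03), both holding 1.

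Elk1 at day 8 against day 0 used libraries that had no part in the choice of loci. With at least a 2-fold difference on log2(signal + 1), Elk1 was higher at day 8 at 40 of 199 Elk1-only loci (20.1%) and at 32 of 84 shared loci (38.1%), against 26.2% of all 1577 loci. It was lower at 51 Elk1-only loci (25.6%) and 8 shared loci (9.52%), against 25.2% of all loci. The median log2 difference was -0.14 for Elk1-only and 0.35 for shared loci, against 0 over all loci. The counting interval was then also required to leave out a ratio of 1. With that, 10 Elk1-only loci (5.03%) and 29 shared loci (34.5%) were higher, against 4.06% of all loci. The share for Elk1-only loci was thus near that of the whole table. Most of the 29 shared loci lay in the places on chromosomes 9 and 2 described above, so neighbours were counted apart. With 1 locus per place, the 2-fold shares of shared loci were 31.1% higher (14 of 45) and 15.6% lower (7 of 45). Lower beyond counting error were 7 Elk1-only loci (3.52%) and 4 shared loci (4.76%), against 1.71% of all loci. At Elk1-only loci these calls rest on few units each, whereas at shared loci they ran up to 438 units at day 8 against 16 at day 0. Median Elk1 signals at days 0 and 8 were 56.3 and 100.05 at shared loci, against 10.3 and 10.2 over all loci. Fewer units give wider intervals, so the shares beyond counting error compare loci that differ in signal.

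The 10 Elk1-only loci higher at day 8 beyond counting error included 5 named genes. The ratio of day 8 to day 0 was 4.43 beside Fos (interval 2.19 to 9.72), 5.71 beside Egr1 (2.42 to 15.5), 7.35 beside Junb (2.47 to 29.7) and 4.99 near Egr3 (1.34 to 18.9), with Map3k14 as the other named gene. Of the rest, 3 lay in Gm38510, with 58.1, 73 and 132.5 at day 8 against 14.5, 20.6 and 26.7 at day 0. The last 2 were chr9:3034885-3035265 and chr10:50106725-50106945, with 37 and 22.9 at day 8 against 0 at day 0 in both. The 7 lower beyond counting error were 2 near Trpm8, 1 in Gm38510, 1 each in Cc2d2b and Cntnap2, 1 near Gm9733 and 1 far from genes on chromosome 13.

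In ciNSLCs Elk1 was lower than at day 0 at more of the 283 loci than it was higher. It was higher at 30 Elk1-only loci (15.1%) and 18 shared loci (21.4%), against 22.5% of all loci, and lower at 61 (30.7%) and 34 (40.5%), against 28% of all loci. Beyond counting error 7 Elk1-only and 12 shared loci were higher, against 2.92% of all loci, and 21 (10.6%) and 29 (34.5%) were lower, against 7.29%. Most of the 12 shared loci again lay in the places on chromosomes 9 and 2. With 1 locus per place, the 2-fold shares of shared loci were 13.3% higher and 53.3% lower. The median log2 difference was -0.35 for Elk1-only and -0.61 for shared loci, against -0.20 over all loci. Among the 7 higher were Fos at a ratio of 3.58 (interval 1.84 to 7.66), Egr1 at 3.37 (1.46 to 9.21) and Junb at 7.13 (2.57 to 27.9). The rest of the 7 were near A530032D15Rik, in Gm38510, and at chr10:50106725-50106945 and chr9:3036405-3036745. Among the 21 lower was a locus in Sox5, a transcription factor of neural and cartilage development, with 0 in ciNSLCs against 27.5 at day 0 (upper bound of the ratio 0.482). That day 0 signal was 8 units. Others of the 21 lay in the chromosome 1 stretches, in or near Gm38510, Sp110, Mroh2a and Trpm8, and others on further chromosomes.

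In pri-NPC the table itself sets a high background, since 687 of the other 1294 loci had 100 or more with Elk1 in that library. Elk1 was higher than at day 0 at 43 Elk1-only loci (21.6%) and 36 shared loci (42.9%), against 59.5% of all loci, and lower at 75 (37.7%) and 24 (28.6%), against 19.5%. Beyond counting error 11 Elk1-only and 33 shared loci were higher, against 46.8% of all loci, and 3 and 14 were lower, against 1.46%, so at Elk1-only loci this condition turned the split to more higher than lower. With the unit of 2.9 in place of 14.5 the Elk1-only loci beyond counting error were 20 higher and 33 lower, so the turn depended on the unit. With the unit of 14.5, most of the 33 shared loci that were higher lay in the places on chromosomes 9 and 2. The median log2 difference was -0.43 for Elk1-only and 0.37 for shared loci, against 2.03 over all loci. Scaling each library to the same median subtracts 2.21 from every pri-NPC difference, which left 13.8% of the 283 loci higher and 73.1% lower. The ratio to day 0 was 6.60 at Fos (interval 2.88 to 15.4), 6.17 at Egr1 (2.07 to 18.7) and 9.45 at Junb (2.65 to 42.2).

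Against day 0 the day 4 signal was at least 2-fold higher at 188 of 199 Elk1-only loci and 52 of 84 shared loci, with 43.2% of all loci higher, and nothing is read from this since day 4 chose the loci. At Sfi1 the shared loci were high at both stages, with medians of 250.8 at day 4 and 178.9 at day 0.

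Of the 8 gene lists, 3 had a gene with a locus among the 283, by nearest protein-coding gene within 50 kb. Over all 21900 protein-coding genes, 137 had such a locus. Immediate-early and serum response genes had 4 of 43 (Egr1, Egr3, Fos and Junb), all Elk1-only, and 6 had any locus in the table. Neural progenitor genes had 1 of 25, Sox2, and 5 had any locus in the table. Hedgehog pathway genes had 1 of 20, Smo, the only 1 with any locus. The other lists had none, with 0 of 13 ternary complex factors and Srf cofactors, 0 of 22 cytoskeletal Srf targets, 0 of 34 mitochondrial and RNA processing ETS targets, 0 of 32 ribosome genes and 0 of 20 fibroblast genes. Of these lists, 3 fibroblast genes, no ribosome gene and 1 gene of each of the rest had any locus in the table. Elk1-only loci within 50 kb of a gene were spread over 115 genes, and 4 of these loci were nearest to an olfactory receptor gene, a family with 1110 of the 21900 protein-coding genes.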

How the data were processed

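The signal values, 1 per locus and library and never negative, were deposited by the authors. Build mm10 and the tools SAMtools, Bowtie2, FastQC and CASAVA 1.8.4 are named, without roles, per the submitters' processing notes. For peak calling, background and scaling, the method is not given in the sources used here. Column names tied each of the 10 signal columns to its sample.

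Loci with Elk1 day 4 at 100 or more were split by whether any Gli2 signal was at 100 or more. The loci and gene lists were chosen with earlier results of these data known. A step was fitted jointly for both antibodies of a stage to signals below 60, with a tolerance of 0.06, and a signal divided by the step, rounded, gave counted units. That a step is a scaled count is an inference from the values, not a statement of the authors. The fit allowed up to 2 background steps, with 3 as an alternative added after seeing the data. On simulated data it recovered the steps it was given except 1 set close to 3 times its background step, which came out too small. The Elk1 pri-NPC step is 2.79 times its background step and could not be settled by the fit alone. Differences are of log2(signal + 1), which understates low signals, and 2-fold counted as a difference. Ratio intervals are exact conditional binomial intervals, and interval shares are Clopper-Pearson. With 1 library per group no test between stages was possible. PCR reads without molecular identifiers are not independent molecules, so intervals cover counting error only.

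Gene positions came from RefSeq on GRCm38.p6, with 49997 genes, without exons, so exon, intron and UTR were not assigned. Coordinates are printed as deposited, and whether they count from 0 or 1 is not stated. Starts were used for 17492 of 21900 protein-coding genes and for none on chromosome 18. Distance to a gene is to its nearer end.

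Genes were named by a rule. It took listed genes, Elk1-only loci at 100 in a further Elk1 stage, the 10 highest Elk1-only loci within 5 kb of a gene, places of 3 or more shared loci, the 10 highest shared loci outside them, loci at the edge of the limit and loci over promoter windows. Genes named from the day 8, ciNSLC and pri-NPC calls, Olfr985, and the limits of 25, 40, 50 and 75 and of 4 Mb, were chosen after the values were seen. Alternatives were other limits, pseudocounts, scaling to the same median, a filter on low signals, 1 locus per place, and loci listed elsewhere. Values were computed in Python 3.11.15 with pandas 2.3.3, scipy 1.17.1 and numpy 2.4.6, and figures drawn with matplotlib 3.10.9.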

Additional observations from a re-analysis of the deposited data

How the results depend on the processing

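Shares here are percent of the 283 loci, or of the subset named (66 loci at 150 or more, 89 to 92 at 100 in a further library, 213 places, 235 loci outside the first 4 Mb), as higher and lower pairs against day 0, and a share counted as moved when it left the 95% interval of the value reported, so 45 of the 92 alternative shares kept within it. The share with Gli2 became 45.6% at a Gli2 limit of 50, 23.3% at 150, 84.8% (56 of 66) for loci at 150 or more with Elk1 at day 4, and 19.7% with 1 locus per place. The share near a gene, 48.1% within 5 kb, was 41.3% within 1 kb and 65.7% within 50 kb. At 1.5-fold the pairs were 32.5% and 30.7% at day 8, 23.7% and 44.2% for ciNSLCs, then 33.6% and 42.4% for pri-NPC, with 92.9% higher at day 4. At 3-fold they were 17.7% and 12%, 11.7% and 21.2%, and 20.8% and 26.9%, with 75.6% at day 4. Loci at 150 or more at day 4 gave 42.4% and 6.06% at day 8, 28.8% higher for ciNSLCs, 50.0% and 22.7% for pri-NPC, and 68.2% at day 4. Loci at 100 in a further library gave 40% and 8.89% at day 8, 25% higher for ciNSLCs, 43.8% and 28.1% for pri-NPC, and 64.1% at day 4. In both of these subsets the pri-NPC split turned to more higher than lower loci. With the counting interval, added after seeing the data, the pairs were 13.8% and 3.89%, 6.71% and 17.7%, and 15.5% and 6.01%, and the pri-NPC split turned likewise, but with the smaller pri-NPC unit of 2.9 that pair was 19.4% and 19.8% and did not turn. A pseudocount of 5 gave 16.3% lower at day 8 and 12.4% and 24.7% with ciNSLCs. Scaling to the same median gave 13.8% and 73.1% with pri-NPC and 76.3% at day 4, and 1 locus per place gave 93.4% at day 4. The day 8 split turned with 1 locus per place, to 23.5% higher and 24.9% lower, and without the first 4 Mb of chromosomes, to 22.1% and 23.8%. The cause of these shifts was not tested. The first 3.5 Mb or 5 Mb in place of 4 Mb, chosen after seeing the data, did not move the share of Elk1-only or shared loci there beyond its interval. No paired analysis was possible because each group has 1 library. Each limit of 100 rests on few units, from 7 in Elk1 pri-NPC to 35 in Elk1 ciNSLCs, so a low signal in pri-NPC is the least precise, if its larger unit holds.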
